A study of Oryza sativa Japonica Group and Oryza sativa Indica Group with 24 samples.

Results

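BURP16 and BURP17 are members of the BURP family, plant proteins that share a conserved C-terminal domain. They were measured here by 1 probe set each for BURP16 (gene ID 4348595, also named WGP1) and for BURP17 (gene ID 4349896, also named RDB1), among 57258 probe sets of an Affymetrix rice array. The genes were found by the names BURP16 and BURP17 in the synonyms of the gene table, and were chosen on their scaled signals in salt and control arrays of all 4 sets, which were already known. Those values are therefore given as a description, with standard errors and without tests. Both probe sets passed the filter on dim signals, set at a scaled signal of about 27.9, and the mean levels below show through which groups each passed.

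The BURP domain takes its name from BNM2 of Brassica napus microspore embryos, USP of field bean seeds, RD22 of Arabidopsis and PG1beta of tomato. PG1beta binds polygalacturonase, an enzyme that cuts pectin in the cell wall, and RD22 is a drought-response gene that is induced through abscisic acid. BURP16 encodes a PG1beta-like subunit, and rice plants that overexpress it have been described as holding less pectin and as more sensitive to stress. BURP17 is given here without a role.

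RNA came from crown and growing point tissue at panicle initiation, with 24 arrays in 8 groups of 3. Salt-stressed and unstressed (control) plants were compared in m103, a japonica cultivar called sensitive, in agami, a japonica cultivar called tolerant, and in 2 further sets, a first and a second, that both carry the name ir29, an indica cultivar called sensitive. The series text also names a tolerant indica, ir63731, which appears in no title, so the ir29-labelled sets were kept apart by the numbers in their titles (7 to 12 and 19 to 24) and were given no tolerance class. The replicates are called biological. No label gives the plants per sample, the salt dose or its duration.

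Arrays were scaled to a trimmed mean of 500, a level that 15 arrays already had as deposited and 9 did not (5 arrays of m103, and 4 that belong to the first ir29-labelled set). Replicate arrays correlated at Pearson's r of 0.963 to 0.974. Of 9 genes listed as growing point markers 7 had a probe set and all 7 lay above the filter level, among them the knotted-type homeobox genes OSH1 and OSH6. Of 8 anther and tapetum markers, 7 had a probe set and 4 of these (TDR, CYP703A3, RAFTIN1 and C6) lay below it. Markers of other tissues passed as well: 4 of 5 leaf, 3 of 4 root and 2 of 5 seed markers with a probe set lay above that level. In a sample of whole tissue, fewer cells of a type and less RNA per cell cannot be told apart.

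The array of the second ir29-labelled set called salt replicate 1 stood apart from its set in a way that touches BURP17. Probe sets were taken that had a scaled signal above 2000 in all 12 japonica arrays and below 100 in all other 11 ir29-labelled arrays, and 32 met this, BURP17 among them. Salt replicate 1 exceeded the other 11 arrays in 31 of the 32. Its median scaled signal over them was 262, or 6.46% of the japonica mean (quartiles 4.37% and 7.97%). The same choice made for each other ir29-labelled array in turn, with salt replicate 1 left out, gave medians of 0.214% to 0.611% over 32 or 33 probe sets. The main values of BURP16 and BURP17 that rest on this array are given with and without it, and why it carries this signal was not tested. The thresholds of 2000 and 100 were chosen after the data had been seen. A second array, agami control replicate 1, was at a median of 5.15% of the m103 level over 7 probe sets with a scaled signal above 1000 in all m103 arrays and below 100 in all remaining arrays of other sets, and exceeded those remaining arrays in 5 of the 7. Salt replicate 1 of the second ir29-labelled set was at 4.54% over 6 probe sets chosen in the same way. Other arrays had under 5 probe sets bright only in m103 and were not scored on them. Over 15 probe sets bright only in agami, salt replicate 1 of the second ir29-labelled set was at 0.27% of the agami level. Over 6 bright only in the first ir29-labelled set, agami control replicate 1 was at 0.80% of that set's level. The limit of 100 did not apply to the scored array, so some of the m103-bright probe sets entered through its own signal. The 5.15%, the 4.54% and the 5 of 7 therefore rest in part on the choice and do not compare arrays. Without agami control replicate 1, the agami salt differences given below were -0.18 for BURP17 and -0.07 for BURP16, on the log2 scale.

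**Figure D1:**
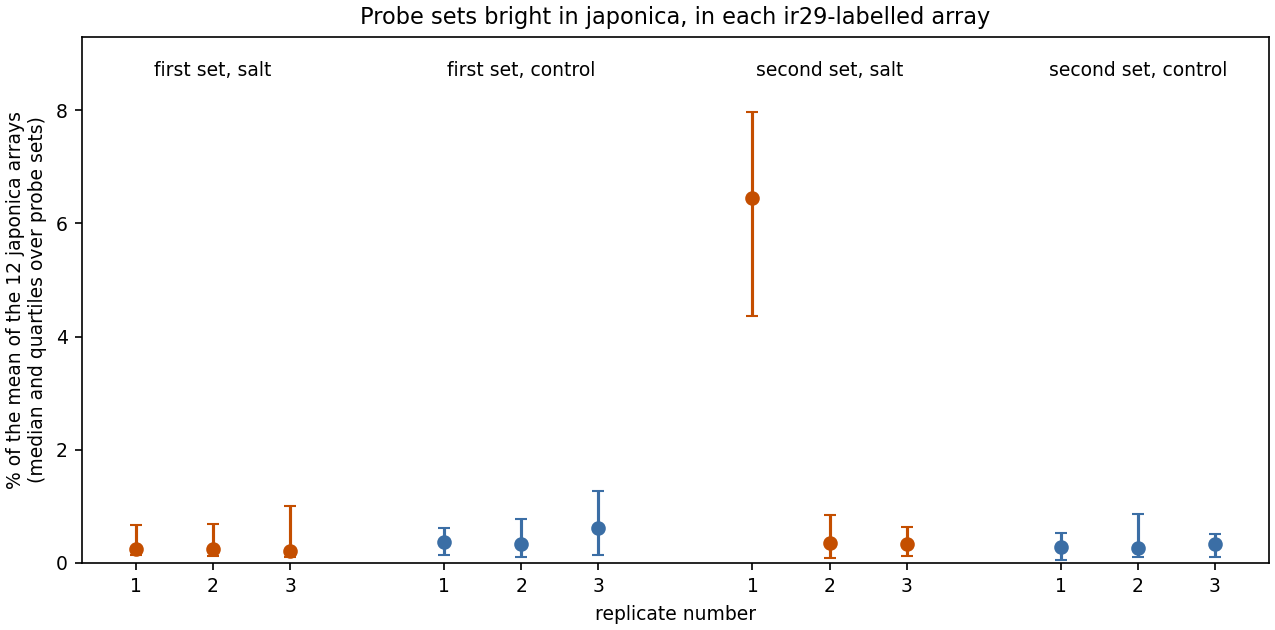
Points are the median, and bars the quartiles, of the signal of probe sets bright in japonica, as a percent of the mean of the 12 japonica arrays (y axis), for each of the 12 ir29-labelled arrays (x axis, replicate numbers within each group; orange salt, blue control). Salt replicate 1 of the second set is at 6.46%, and the other 11 arrays lie between 0.214% and 0.611%.

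BURP17 was bright in the japonica cultivars and dim in the ir29-labelled sets, whatever the treatment. In m103 its scaled signals were 21317, 17253 and 14081 with salt and 10920, 11867 and 11341 in control. In agami they were 13655, 13885 and 15601 with salt and 11845, 15708 and 16901 in control. The lowest of the 12 japonica arrays was thus at 10920, and the m103 salt arrays lay above the m103 control arrays while those of agami overlapped.

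In the first ir29-labelled set the scaled signals of BURP17 were 2.51, 4.0 and 6.08 with salt and 1.98, 16.4 and 9.36 in control. In the second set they were 335, 10.9 and 15.6 with salt and 4.6, 4.6 and 4.4 in control. Of the 12 ir29-labelled arrays 11 lay below the filter level of 27.9, and the remaining one was salt replicate 1 of the second set, at 2.31% of the japonica mean.

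**Figure D2:**
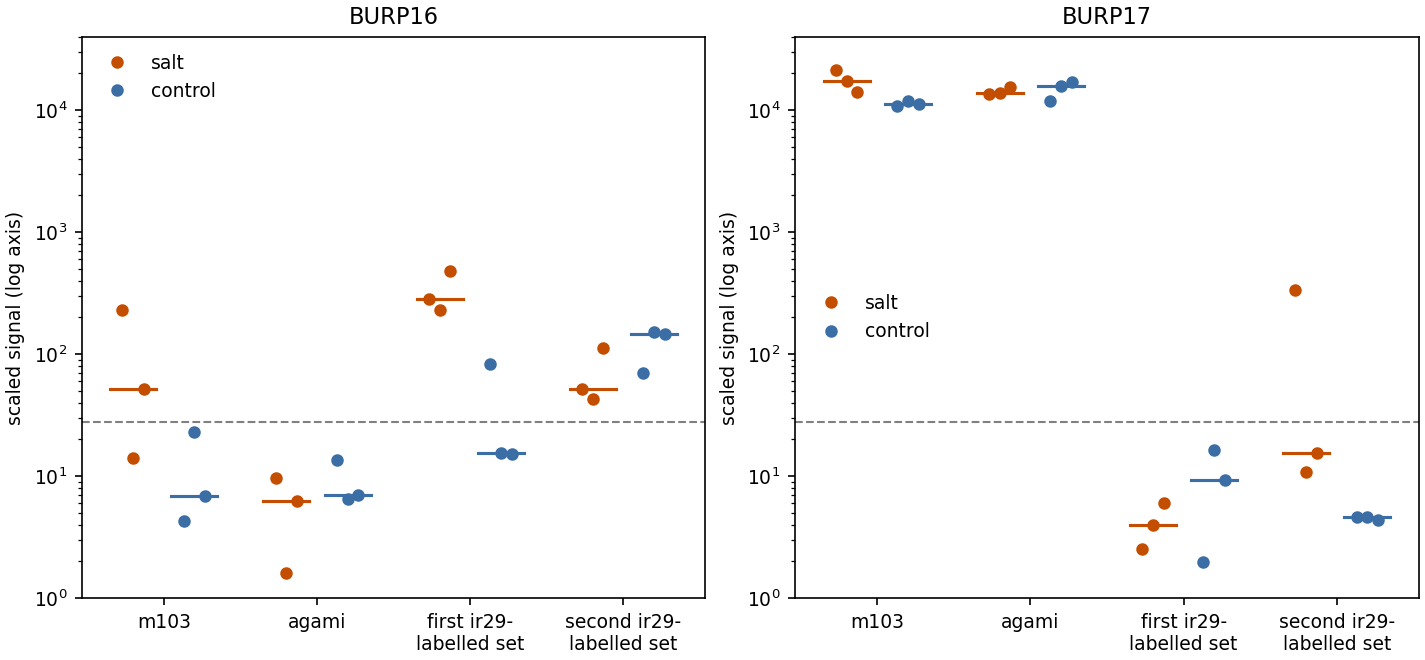
Scaled signal (log axis) of BURP16 (left panel) and BURP17 (right panel) in each array, with salt in orange to the left of control in blue in each of the 4 sets, and a short line at each median of 3 arrays. The dashed line is the filter level of 27.9: BURP17 lies at 10920 or more in all japonica arrays and below the line in 11 of 12 ir29-labelled arrays, and BURP16 lies highest in the salt arrays of the first ir29-labelled set.

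Over all arrays BURP17 averaged 14531 ± 3023 in the 12 japonica arrays and 34.6 ± 94.7 in the 12 ir29-labelled arrays (SD), or 7.31 ± 5.05 in 11 ir29-labelled arrays without salt replicate 1 of the second set. The difference of the log2(scaled signal + 16) means, japonica minus ir29-labelled, was 8.96, and 9.29 without that array. Because the ir29-labelled values lie in the dim range, the fold is given against the filter level where they fall below it: japonica was at least 521-fold higher without salt replicate 1. The log2 difference itself depends on the pseudocount, since 11 of the 12 ir29-labelled arrays lay below the filter level and BURP17 passed the filter through the japonica arrays. In 4.08% of probe sets all 12 japonica arrays lay above all 12 ir29-labelled arrays, as they did for BURP17. Among unstressed arrays alone the BURP17 difference was 9.17 ± 0.38 (SE from the model). The SE was 0.13 when salt replicate 1 of the second set was left out of the model. Whether BURP17 transcripts of the ir29-labelled plants match the probes was not tested.

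**Figure D3:**
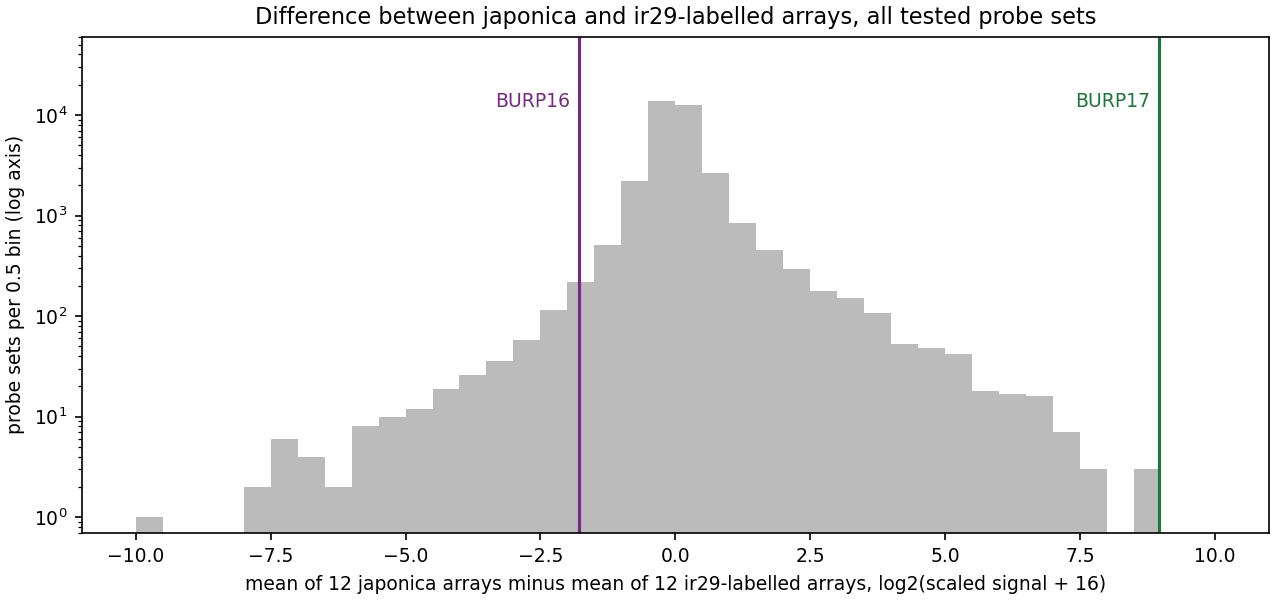
Number of tested probe sets (y axis, log) by the difference between the mean of the 12 japonica and the mean of the 12 ir29-labelled arrays in log2(scaled signal + 16) (x axis, bins of 0.5). The vertical lines mark BURP17 at 8.96, in the right-most occupied bin, and BURP16 at -1.79, on the opposite side of 0. Without salt replicate 1 of the second ir29-labelled set the BURP16 value was -1.86.

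Within japonica, the salt difference of BURP17 was small beside this gap. In m103 the mean was 17550 ± 3627 with salt and 11376 ± 474 in control (SD, n = 3 each), a ratio of 1.54 and a log2 difference of 0.61 ± 0.53 (SE). The 3 salt arrays of m103 lay above the 3 control arrays, a separation that 14.1% of all tested probe sets showed in that direction. The model's SE is shared by all groups and is widened by salt replicate 1 of the second ir29-labelled set; without that array the m103 difference was 0.61 ± 0.18. The brightest of the m103 salt arrays, replicate 1, was also the only m103 array already at the target scale as deposited, and without it the log2 difference was 0.45. In agami the mean was 14380 ± 1063 with salt and 14818 ± 2643 in control, a log2 difference of -0.03 ± 0.53, and the arrays overlapped. Its SE was 0.18 without salt replicate 1 of the second ir29-labelled set. The difference between these salt differences, agami minus m103, was -0.63 ± 0.75, or -0.63 ± 0.25 without salt replicate 1 of the second ir29-labelled set.

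In the second ir29-labelled set all 3 salt arrays of BURP17 lay above the control arrays, as in 11.4% of probe sets, with a log2 difference of 1.70 ± 0.53. It was 0.51 ± 0.20 without salt replicate 1, whose 335 made up most of the salt mean of 120. All remaining values of that set were below the filter level. In the first ir29-labelled set the arrays overlapped below that level, with a log2 difference of -0.28 ± 0.53. The SE was 0.18 without salt replicate 1 of the second set. No salt response of BURP17 could therefore be read in either ir29-labelled set at these signals. In order of mean level BURP17 was highest in m103 salt, then agami control, agami salt and m103 control, and of these neighbours only agami salt and m103 control differed beyond their SDs. The 4 ir29-labelled groups followed after a gap of 7.41 on the log2 scale, which was beyond the SDs. Among these 4 groups no neighbours differed beyond their SDs.

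BURP16, the PG1beta-like gene, was dim in most groups and followed another pattern. In the first ir29-labelled set its scaled signals were 284, 232 and 480 with salt and 83.1, 15.5 and 15.3 in control. The groups did not overlap, and control replicates 2 and 3 lay below the filter level. The mean was 332 ± 131 with salt and 38.0 ± 39.1 in control (SD, n = 3 each), a ratio of 8.74 and a log2 difference of 2.85 ± 0.57 (SE). Control replicate 1 carried the control mean: without it the ratio was 21.6 and the log2 difference 3.41. In 12.3% of tested probe sets all salt arrays of that set lay above all control arrays.

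Within the arrays of that set that were deposited below the target scale, BURP16 was at 284 and 480 with salt and at 83.1 and 15.3 in control. In those at the target scale it was at 232 with salt and 15.5 in control, so salt was higher in both.

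In m103 the scaled signals of BURP16 were 232, 14.1 and 52.2 with salt and 4.32, 22.98 and 6.93 in control. The groups overlapped, because salt replicate 2 lay below control replicate 2, and all control arrays were below the filter level. The log2 difference was 1.60 ± 0.57, and 0.79 without salt replicate 1, the only m103 array already at the target scale as deposited. In agami BURP16 stayed below the filter level in all 6 arrays, at 9.70, 1.60 and 6.30 with salt and 13.7, 6.5 and 7.0 in control, so no difference could be read.

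In the second ir29-labelled set the scaled signals of BURP16 were 51.6, 42.6 and 112 with salt and 69.8, 152 and 147 in control. The means were 68.6 ± 37.5 with salt and 123 ± 46.2 in control, a log2 difference of -0.74 ± 0.57. The groups overlapped, since salt replicate 3 was above control replicate 1. Without salt replicate 1 the difference was -0.62 ± 0.65. The salt difference of the second set minus that of the first was -3.59 ± 0.80, and -3.47 ± 0.87 without that array.

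**Figure D4:**
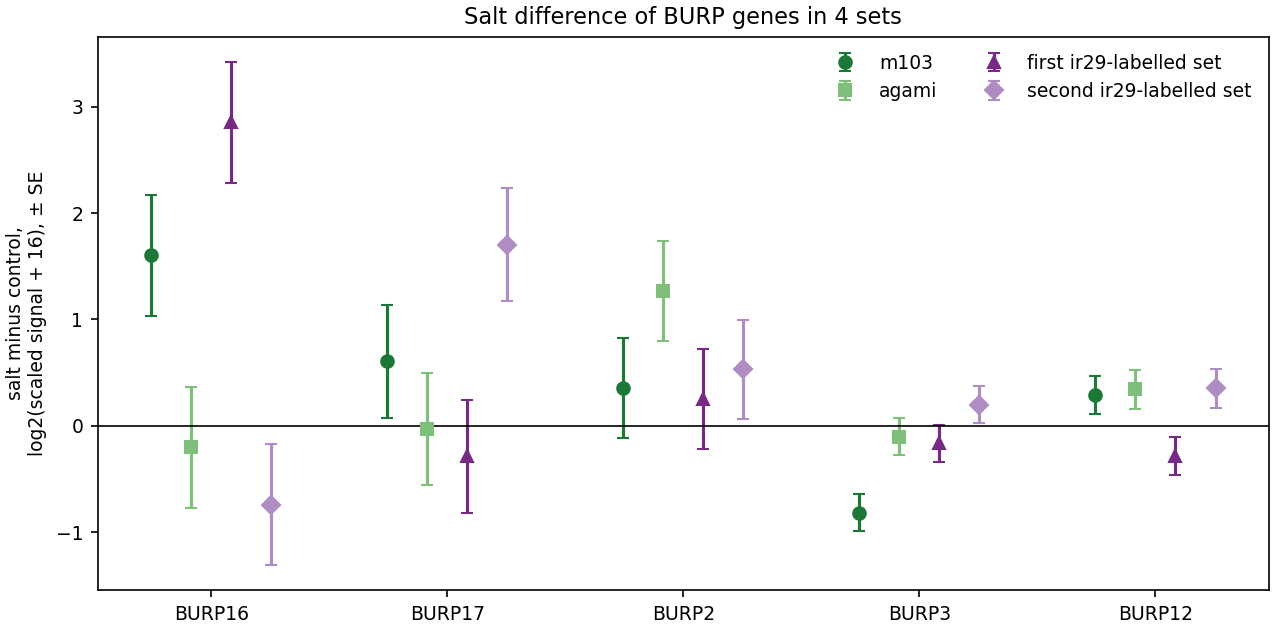
Salt minus control in log2(scaled signal + 16), with the model's SE as bars (y axis), for BURP16, BURP17 and the 3 other BURP genes tested (x axis, brightest probe set of each), with 1 symbol per set. BURP16 spans -0.74 in the second to 2.85 in the first ir29-labelled set, BURP17 stands at 1.70 in the second set through 1 array, and BURP3 is lowest in m103 at -0.82.

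By mean level BURP16 was highest in the salt arrays of the first ir29-labelled set, which exceeded the next group, the control arrays of the second, beyond the SDs of both. No other pair of neighbours in the order did so. The control mean of the second set was above that of the first, with a log2 difference of 1.53 ± 0.57. Control replicate 1 of the first set (83.1) exceeded control replicate 1 of the second (69.8). The unstressed japonica mean was below the unstressed ir29-labelled mean (-1.61 ± 0.40). All japonica control arrays and control replicates 2 and 3 of the first set lay below the filter level, and the japonica and first-set control arrays overlapped. Over all 24 arrays the log2 values of BURP16 and BURP17 had a Pearson's r of -0.64, a description that rests on opposite levels in japonica and ir29-labelled arrays. It was also -0.64 without salt replicate 1 of the second ir29-labelled set.

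Sums of marker genes also differed between salt and control. The root sum was higher with salt in the first ir29-labelled set and lower in the second, as the BURP16 mean was. It was lower in m103, where the BURP16 mean was higher. The growing point sum was higher with salt in the first set and in m103, as the BURP16 mean was, and overlapped in the second. The summed scaled signal of the 4 root markers with a probe set (the silicon transporters Lsi1 and Lsi2, CASP1 and NRT2.2, of which NRT2.2 was below the filter level) was 605 to 671 with salt and 386 to 500 in control in the first set. It was 258 to 354 with salt and 381 to 447 in control in the second set, and 434 to 503 with salt and 1017 to 1641 in control in m103. In agami it overlapped, at 314 to 429 with salt and 295 to 505 in control. The summed signal of the growing point markers was 5325 to 7385 with salt and 4321 to 5043 in control in the first set. In the second set it overlapped, at 6740 to 8434 with salt and 4644 to 6792 in control. In m103 it was 9645 to 11017 with salt and 6733 to 8151 in control. In agami it overlapped, at 9229 to 10913 with salt and 8815 to 9896 in control. The leaf sum was lower with salt in the first set, at 31099 to 34046 against 34940 to 37139 in control. It overlapped in the other sets. The seed sum was lower with salt in the second set, at 266 to 313 against 355 to 453 in control, and overlapped elsewhere. The anther sum overlapped in every set. The part of tissue make-up in the BURP16 differences was not tested.

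The gene table lists 7 other BURP genes, of which 5 had a probe set and 3 (BURP2, BURP3 and BURP12) were tested. BURP10 and BURP13, the second also named RAFTIN1 and known from pollen development in the tapetum, failed the filter, which was set on the mean log2 value over all 24 arrays. Single arrays lay above its level, up to a scaled signal of 85.1 for BURP10 (first ir29-labelled set, salt) and 80.2 for BURP13 (agami, salt). Of the 3 tested, 1 was called in m103 (limma, Benjamini-Hochberg adjusted p under 0.05), where 8.85% of all probe sets were called. BURP3 fell in m103, at 3548, 2836 and 3311 with salt and 5624, 5103 and 6376 in control, with no overlap, as in 13.4% of all probe sets. The log2 change was -0.82 ± 0.17 (limma adjusted p = 0.0037), while BURP3 had -0.10 ± 0.17 in agami. Its values in ir29-labelled arrays were -0.16 ± 0.17 (first set) and 0.20 ± 0.17 (second set, 0.37 ± 0.18 without salt replicate 1). The difference between agami and m103 did not pass (0.71 ± 0.25, limma adjusted p = 0.20), where 1.02% of probe sets were called. None of the 3 was called by limma for the second minus the first ir29-labelled set (3.51% of probe sets called) or for the ir29-labelled sets minus japonica (0.212%).

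Elsewhere limma called none of the 3, with 0.934% of all probe sets called in agami, 5.8% in the first ir29-labelled set and 8.83% in the second. An unadjusted p under 0.05 was reached by 1 of them in agami and by 0 in each ir29-labelled set. It was BURP2, whose brighter probe set had all agami salt arrays above the control arrays, as did 10.1% of probe sets. For the mean of the 4 sets, where 17.7% of probe sets were called, none of the 3 was called by limma and 2 had an unadjusted p under 0.05. Both probe sets of BURP2 had positive estimates in all 4 sets but gave different calls for the mean. The brighter had a log2 change of 0.60 ± 0.23 (limma adjusted p = 0.081, and 0.025 without salt replicate 1 of the second ir29-labelled set). The dimmer probe set, not counted above, rose by 1.06 ± 0.28 (limma adjusted p = 0.0098). It also passed in the second ir29-labelled set (1.85 ± 0.56, limma adjusted p = 0.042), a call that was lost under 8 alternatives. They were leaving out salt replicate 1 (limma adjusted p = 0.098), salt replicate 2 (0.18), control replicate 1 (0.18) or control replicate 2 (0.12), a pseudocount of 1 (0.080), no filter (0.070), no intensity trend (0.061) and the set fitted alone (0.088). BURP12 had group means of 501 to 722 and was called in no set.

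Between unstressed japonica and unstressed ir29-labelled arrays, none of the 3 other BURP genes was called, while 32% of all probe sets were. BURP3 differed by -0.27 ± 0.12 (limma adjusted p = 0.10), BURP12 by -0.03 ± 0.13 (limma adjusted p = 0.91) and BURP2 by -0.37 ± 0.33 (limma adjusted p = 0.44). The call of BURP3 depended on settings: its adjusted p was 0.018 with arrays centred on their medians, 0.027 without agami control replicate 1 and 0.015 without control replicate 1 of the second ir29-labelled set.

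Genes of abscisic acid synthesis, signalling and response, the hormone route through which RD22 of Arabidopsis responds, moved in part for the mean of the 4 sets. Of 35 such genes 29 were tested, 12 rose, 2 fell and 15 did not pass, where 17.7% of all probe sets were called, with a median of 0.19 against -0.01 over all probe sets. By set, 10 of the 29 were called in m103 (8.85% of all probe sets), 2 in agami (0.934%), 10 in the first ir29-labelled set (5.8%) and 2 in the second (8.83%). The dehydrin genes RAB21 (2.71 ± 0.13) and RAB16B (1.63 ± 0.16) rose, as did salT, a salt-induced lectin gene (1.06 ± 0.33), NAC5 (0.89 ± 0.13) and the homeobox gene HOX24 (0.85 ± 0.25), with limma adjusted p of 7.8e-13 for RAB21 to 0.025 for salT. RAB21 was called in each of the 4 sets. The salT difference was 3.13 ± 0.65 in the first ir29-labelled set, the only set in which it was called, 1.77 ± 0.65 in m103, -0.53 ± 0.65 in agami and -0.13 ± 0.65 in the second ir29-labelled set. HOX24 was called in no set alone and stood at -0.22 ± 0.49 in the second ir29-labelled set. The kinase genes SAPK5 (-0.32 ± 0.05) and SAPK4 (-0.23 ± 0.04) fell.

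Genes of pectin and wall polysaccharides were sought by name alone, and few were found. What each matched gene encodes was not checked, so the list can hold genes with other functions. Of 8 listed 7 were tested, and 1 rose, 1 fell and 5 did not pass for the mean of the sets, where 17.7% of all probe sets were called, with a median of -0.08 against -0.01 over all probe sets. PMEI8, named as an inhibitor of pectin methylesterase, rose by 0.82 ± 0.13 (limma adjusted p = 8.5e-05), and RGP3, also named UAM3 for the UDP-arabinopyranose mutases, fell by 0.33 (SE 0.06, limma adjusted p = 2.6e-04). The name RGP1 matched 2 gene IDs in the gene table, and neither passed. These are separate genes that share a name, and whether both are wall genes was not checked.

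The named genes most like BURP17 over the 24 arrays, among 2235 genes, were SPO11-4 (Pearson's r of 0.99), RDR4 (0.99), GRXS1 (0.98), KIN14R (0.98) and IRL3 (0.98), all of which were higher in japonica than in ir29-labelled arrays on average. These arrays share their sets, so such values follow the gap between them. After each set's mean was subtracted, the closest were RDR4 (0.70), GRXS1 (0.69), SPO11-4 (0.69), PDX11 (0.69) and ISPH (0.65). These rested on salt replicate 1 of the second ir29-labelled set: without it the same genes had 0.44 (RDR4), 0.31 (GRXS1), -0.05 (SPO11-4), 0.54 (PDX11) and 0.05 (ISPH). The closest over the remaining 23 arrays, again with set means subtracted, were CPK23 (0.78), AdoMetDC (0.76), ZIP3 (0.73), IPA1 (0.71) and RFC5 (0.70). Over all 24 arrays without subtraction, the closest to BURP16 was UAH (0.82), an enzyme of purine breakdown. KPHMT1 (0.82), MADS17 (0.80), Beta-ETF (0.80) and MSRB5 (0.78) followed. With set means subtracted the closest to BURP16 were DOF4 (0.82), GO (0.80), IVD (0.79), Beta-ETF (0.79) and salT (0.79). Without salt replicate 1 of the second ir29-labelled set these 10 values for BURP16 ran from 0.79 to 0.84.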

How the data were processed

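The deposited table gives a signal intensity on a linear scale per probe set and array, which the authors made using GCOS (version 1.2, according to the submitters' processing notes); no label names the algorithm or a mask. Each of the 24 arrays was multiplied to a mean of 500, computed after 2% of probe sets were trimmed at each end, and values were taken as log2(scaled signal + 16), which understates changes of dim probe sets. After 123 control probe sets were left out, the 34355 of 57258 probe sets with a mean above the 40th percentile were tested. Precision is limited by having 3 arrays in a group, and p-values measure only the spread between these samples. Titles supplied the treatment, because the description calls every sample unstressed.

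A model with 8 group means was fitted to all arrays with limma 3.58.1 in R 4.3.3, with an intensity trend, two-sided tests and Benjamini-Hochberg adjustment over all tested probe sets at 0.05. Tested on simulated data, limma recovered 53% of probe sets with a log2 change of 1 and 84% of those with a change of 2 in m103 salt against control, among 34355 probe sets. Genes were named through the platform's annotation, which is old, and the RefSeq gene table of assembly ASM3414082v1, used for names only: 22436 probe sets had 1 gene, 95 several and the others none. Where a gene had several probe sets the brightest was counted. The members and lists were chosen with earlier results of these data known. Named were all BURP genes, the genes of the abscisic acid and pectin lists with the largest called mean changes (at most 5 each way), and the 5 named genes with the highest Pearson's r to each member. The leaf and seed marker lists, whose summed scaled signals ran from 26129 to 46101 and from 212 to 453 over the 24 arrays, were measured as well, as was the anther list (157 to 441). Other scalings, pseudocounts of 1 and 64, no filter, no trend, each set alone, a replicate block and leaving out each array were tried. Likeness without salt replicate 1 of the second ir29-labelled set was added after seeing the data. The samples were taken as unpaired, and whether the replicate numbers pair them was not settled. Same-numbered salt and control arrays had deviations that correlated at -0.05 to 0.20, over 0.1 in 1 of 12 pairs.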

Additional observations from a re-analysis of the deposited data

Results flagged for a closer look

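The estimated salt difference of BURP16 differed in sign between sets. It was 2.85 ± 0.57 (SE) in the first ir29-labelled set, 1.60 ± 0.57 in m103 and -0.74 ± 0.57 in the second ir29-labelled set. Salt and control arrays overlapped in m103 and in the second ir29-labelled set. Every salt array of the second ir29-labelled set was below that set's control mean on the log2 scale, and every salt array of the first ir29-labelled set was above its own, with a difference of -3.59 on the log2 scale (second minus first). The same held for the second ir29-labelled set against m103, with a difference of -2.34 (second minus m103), which was -1.53 without m103 salt replicate 1. All m103 control arrays and m103 salt replicate 2 lay below the filter level. These differences were not tested, because the gene was chosen with these values known.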

How the results depend on the processing

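No sign of a BURP16 or BURP17 salt difference turned under another scaling, pseudocount or the replicate block, and that of BURP17 in agami, near 0, turned without control replicate 2, control replicate 3 or salt replicate 1. Leaving out 1 array in turn gave BURP16 differences of 0.79 to 2.31 in m103, -0.33 to -0.05 in agami, 2.56 to 3.41 in the first ir29-labelled set, -1.08 to -0.52 in the second and 0.67 to 1.05 for the mean of the sets. For BURP17 they were 0.45 to 0.75, -0.18 to 0.07, -0.51 to -0.08, 0.51 to 2.36 and 0.20 to 0.66 in the same order. A pseudocount of 1 gave -0.71 for BURP16 in agami and -0.70 for BURP17 in the first ir29-labelled set, a pseudocount of 64 gave 1.97 for BURP16 in that set, and unscaled signals gave 1.24 for BURP17 in m103.

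Counts of called probe sets moved more. In agami 321 became 188 with median centring, 200 without the filter, 119 without the trend, 541 with the replicate block, 213 from its own arrays and 77 to 370 without 1 array. In the first ir29-labelled set 1993 became 1038 when the 2 arrays of this set and the 1 of m103 that were deposited at the target scale were left out of the fit (chosen after seeing the data) and 1337 to 1542 without 1 array. In the second 3034 became 179 from its own arrays and 928 to 3750 without 1 array, 3750 being without salt replicate 1. In m103 3039 became 1756 to 2579, and for the mean 6097 became 5448 to 6355. Without 1 array the other BURP genes called stayed at 1 in m103 and 0 in the other sets, and were 0 to 1 for the mean. The replicate block, which groups arrays of a set by number, also gave 1 for the mean (BURP3, limma adjusted p = 0.027). The abscisic acid genes called were 14 to 15, and those called from the pectin list 2 to 2. The salT call ended without the trend (limma adjusted p = 0.056). Of 24 arrays 12 correlated best with an array of their own number. The cause of these moves was not tested. Signals under the filter level limit BURP16 in agami and BURP17 in the ir29-labelled sets.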
